A study of Macaca mulatta with 12 samples.

Results

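The genes described here are the axon guidance ligands and receptors, that is the semaphorins and plexins, the ephrins and Eph receptors, the netrins, netrin-Gs and UNC5 receptors, and the slits and ROBO receptors. They were chosen by symbol alone and numbered 59 of the 19708 gene rows in the count table: 28 ligands, 29 receptors and 2 genes, UNC50 and UNC5CL, that the symbol rule caught but that are not netrin receptors. The measurements are RNA counts from nuclei isolated from frozen, surgically removed amygdala of the rhesus macaque, Macaca mulatta. The 12 labelled samples, from 3 specimens, form 1 group, and the labels name no genotype, treatment, age or sex. The study is titled as a molecular taxonomy of the primate amygdala, so the comparisons it allows are between cell classes and between subtypes of neurons.

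Guidance ligands steer growing axons and migrating cells by attracting or repelling them, and in the adult brain the same molecules act on synapses, myelin, glia and blood vessels. Slits bind ROBO receptors, netrins bind DCC and UNC5 receptors, netrin-Gs bind netrin-G ligands of the LRRC4 family, semaphorins bind plexins either directly or through neuropilins, and ephrins bind Eph receptor kinases. The amygdala holds glutamatergic projection neurons and GABAergic neurons, and guidance genes differ widely between neuron types in the brain.

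The table holds counts of UMIs (tags that mark single captured transcripts) for 26400 nuclei, whose barcodes end in 1 of 3 suffixes, called barcode sets 1, 2 and 3. No label ties a set to an animal or sample, and 68 barcode sequences occur in more than 1 set. The nuclei were therefore treated as 1 pool with no replicate error, no test and no p-value. Levels are in CPM, a gene's summed UMIs in a class scaled by all UMIs of that class, and intervals are exact 95% Poisson intervals, which cover counting error only. Where 3 values stand in brackets after a level, they are the levels in barcode sets 1, 2 and 3 in that order. A gene is called higher or lower in a comparison when the levels differ at least 2-fold and in the same direction in all 3 sets. It counts as measured when either side holds at least 50 UMIs and each side would hold at least 10 at the higher level. Levels are compared for 1 gene across classes and not between genes, since the assay reads 3′ ends and transcripts differ in capture.

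After 1862 presumed doublets were left out, 24538 nuclei remained, and clusters were named from marker genes without use of the guidance genes. The names mean that a cluster is like that cell type in its markers. There were 11040 excitatory and 4107 inhibitory neurons, 6055 astrocytes, 789 ependymal cells, 387 oligodendrocyte precursors, 440 oligodendrocytes, 314 microglia, 159 mural cells (the pericytes and smooth muscle of vessels) and 142 endothelial cells. Another 1105 nuclei (4.50%) stayed unnamed. Depth differed, with a median of 7919.5 UMIs per excitatory and 5654 per inhibitory nucleus against 1374 to 2231 in the other classes. Neuronal transcripts were also read in every non-neuronal class: SYT1, a synaptic vesicle protein, stood at 786 to 1494 CPM there, against 3234 in excitatory neurons, and RBFOX3, a neuronal splicing factor, at 29.8 to 138 against 835. EPHA6 lay at 441 to 630.3 CPM in all 7 non-neuronal classes, and the part that free neuronal RNA has in such values was not tested.

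Transcripts of guidance genes were read in every class, and members of most families had their highest levels in different classes. Of the 59 members, 54 reached 50 UMIs in at least 1 class. Their highest level fell in inhibitory neurons for 14, excitatory neurons for 12, mural cells for 6, endothelial cells for 6, astrocytes for 4, and ependymal cells, precursors, oligodendrocytes and microglia for 3 each. For 30 members the highest class was the same in all 3 barcode sets. The highest class did not always hold 50 UMIs itself, as for SEMA5B and EFNB1 in mural cells, and some leads were slight. SEMA5B stood at 61.0 CPM in mural cells and 60.7 in excitatory neurons, and EFNB1 at 12.2 in mural and 11.8 in endothelial cells. Of the receptors, 7 were highest in excitatory and 10 in inhibitory neurons, and of the ligands 5 and 4. The remaining gene, UNC50, stood between 10.4 and 23.5 CPM in all classes. Together the members made up 15010.0 CPM in excitatory neurons and 12582 in inhibitory neurons, against 4177 in ependymal cells to 6807 in precursors among the rest.

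**Figure D1:**
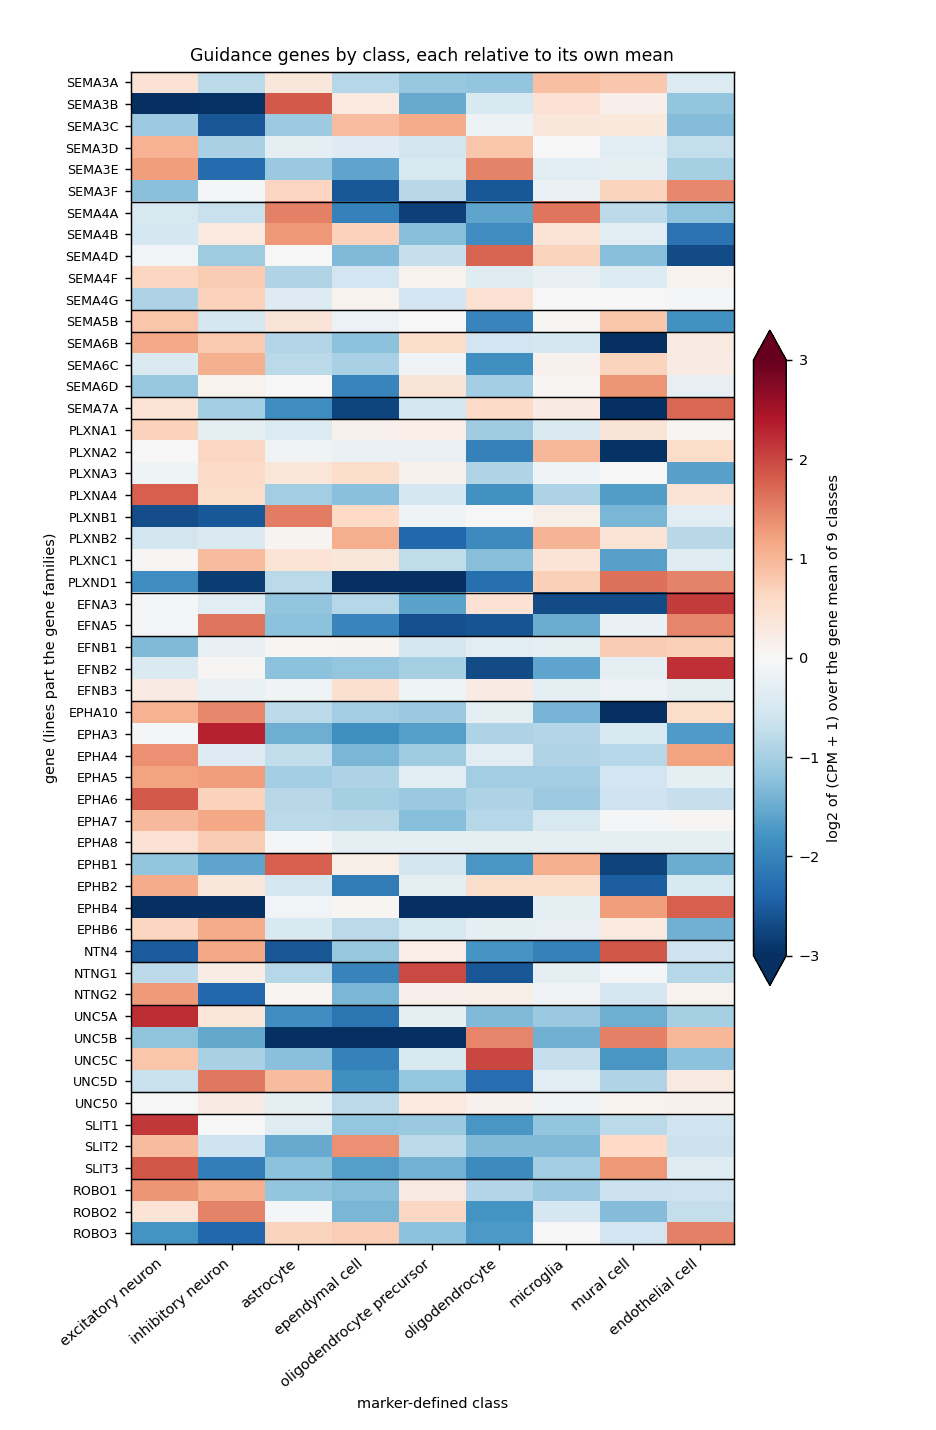
Level of each guidance gene with at least 50 UMIs in a class (54 genes, rows, grouped by family) across the 9 marker-defined classes (columns), as the log2 of CPM + 1 over that gene's own mean across classes. SLIT1, SLIT3 and UNC5A are reddest in excitatory neurons, NTNG1 in oligodendrocyte precursors, UNC5C and SEMA4D in oligodendrocytes, EPHB1 and PLXNB1 in astrocytes, and EFNB2 in endothelial cells.

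The first comparison asks how the glutamatergic and GABAergic neurons of the sampled tissue differ in these genes. Of 53 measured members, 19 were higher in excitatory neurons (background: 8.61% of 7433 measured genes kept out of clustering), 11 were lower (background: 8.3%) and 23 were neither. By role, 11 of 27 measured ligands and 8 of 25 measured receptors were higher in excitatory neurons, and 8 ligands and 3 receptors were lower. The median log2 ratio, excitatory over inhibitory, was 0.201 over the members and -0.096 over all held-out genes. In all 30 called members the 3 set values of one class lay clear of the 3 of the other. This adds little, since a call already required the same direction in every set.

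**Figure D2:**
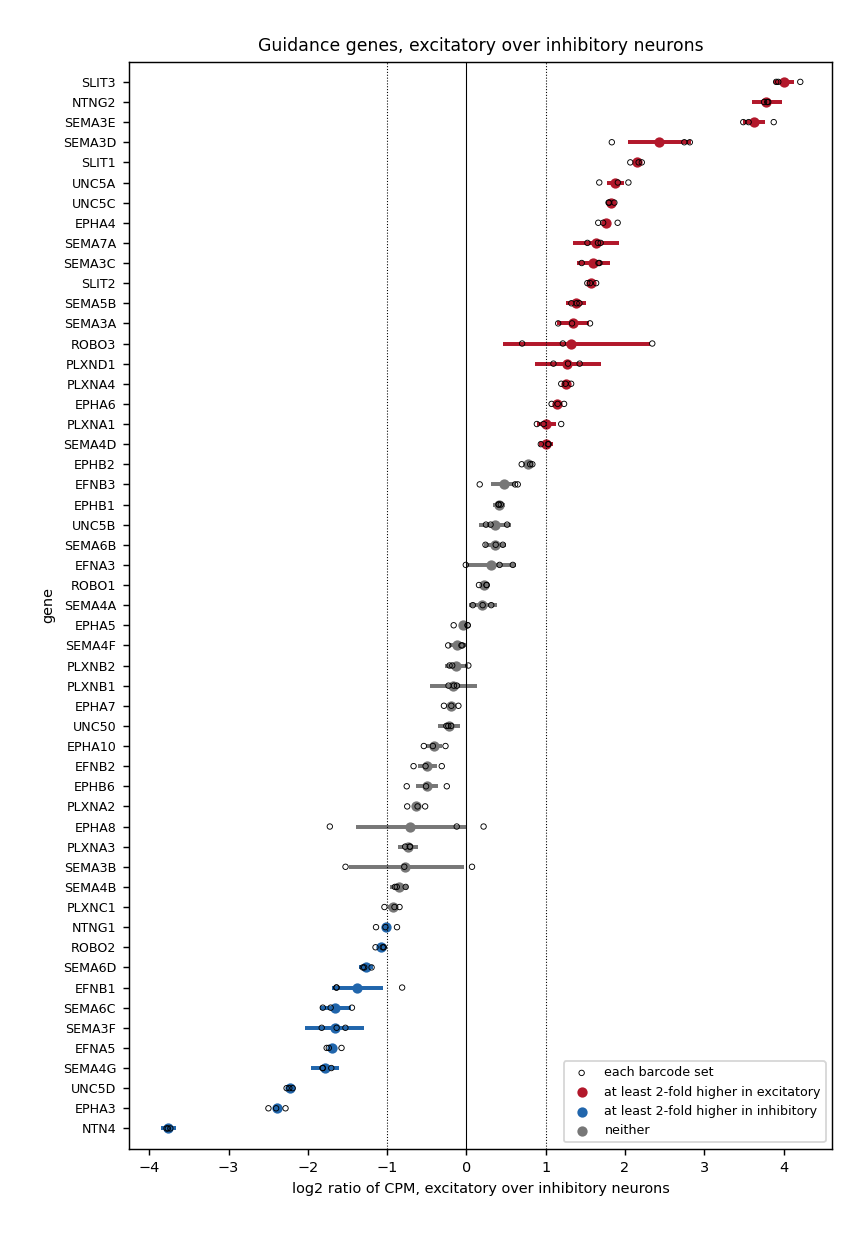
Log2 ratio of CPM, excitatory over inhibitory neurons, for the 53 measured guidance genes. Filled points are the pooled ratio, bars its exact 95% interval for counting error, open points the ratio within each barcode set, and dotted lines 2-fold; SLIT3, NTNG2 and SEMA3E lie furthest to the right and NTN4, EPHA3 and UNC5D furthest to the left.

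All 3 slits, secreted repellents, were higher in excitatory neurons, while their receptors split. SLIT3 stood at 351 CPM (349, 354 and 349) in excitatory and 21.8 CPM (22.8, 23.6 and 18.8) in inhibitory neurons, a log2 ratio of 4.005 (3.88 to 4.13). SLIT1 stood at 562 CPM (564, 562 and 561) and 127 CPM (135, 125 and 121), a log2 ratio of 2.15. SLIT2 stood at 587 CPM (584, 592 and 584) and 197 CPM (198, 190.5 and 203), a log2 ratio of 1.57. For each slit, every excitatory set lay far above every inhibitory set, and the sets differed little within a class. With presumed doublets kept the SLIT3 ratio was 3.42. Of the ROBO receptors, ROBO1, with 3169.9 CPM (3219, 3186 and 3100.3) in excitatory and 2716 CPM (2699, 2673 and 2779) in inhibitory neurons, differed by less than 2-fold (0.22 in log2). ROBO2 was 2.12-fold higher in inhibitory neurons, at 895 CPM (895, 864 and 929) against 423 CPM (431, 419.5 and 419.7), so the excitatory neurons had more of the ligands and the inhibitory neurons more of this receptor. ROBO3, a divergent family member known from midline crossing, was at only 1.204 and 0.483 CPM. Its log2 ratio of 1.32 rested on 12 inhibitory UMIs and was 0.98 without barcode set 1 and 0.34 with each nucleus thinned to 1000 UMIs. Without the PROX1-high excitatory cluster described below, the ROBO2 ratio was -0.73 in log2, short of 2-fold.

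Among netrin family genes the secreted ligand NTN4 lay in inhibitory neurons and the membrane-bound NTNG2 in excitatory neurons. NTN4, a laminin-like netrin of basement membranes, stood at 166 CPM (163, 161 and 174) in inhibitory and 12.2 CPM (12.2, 11.8 and 12.7) in excitatory neurons, 13.6-fold higher in the former (log2 ratio -3.76). NTNG2, a synaptic adhesion molecule tethered to the axon by a lipid anchor, stood at 128 CPM (126, 132 and 126) in excitatory and 9.31 CPM (9.36, 9.499 and 9.04) in inhibitory neurons, a log2 ratio of 3.78 (3.596 to 3.98). Its relative NTNG1 went the other way, at 404 CPM (425, 405 and 381) in inhibitory and 199.8 CPM (193, 199 and 208) in excitatory neurons. That last difference, -1.02 in log2, was just past 2-fold and fell short of it without barcode set 1 (-0.95), with nuclei weighted equally (-0.75) and after thinning (-0.77). By class level the netrin-G pair was thus split, with a far larger gap for NTNG2 than for NTNG1. Over the subtypes described below, the median NTNG1 level was lower in inhibitory (98.3 CPM) than in excitatory neurons (178 CPM).

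The UNC5 receptors, which mediate repulsion from netrin, were split as well. UNC5A was 3.67-fold higher in excitatory neurons, at 117 CPM (113, 122 and 115) against 31.8 CPM (30.2, 29.7 and 35.9). UNC5C was 3.52-fold higher there, at 1264 CPM (1284, 1275 and 1230.5) against 359 CPM (369, 368 and 338). UNC5D was 4.696-fold higher in inhibitory neurons, at 2455 CPM (2466, 2492 and 2404) against 523 CPM (539.5, 517 and 511). The set values of each class lay close together for all 3 receptors, and UNC5B, low in both classes at 12.6 and 9.87 CPM, did not reach 2-fold.

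Secreted class 3 semaphorins, which signal through neuropilins and A-type plexins or, for SEMA3E, through PLXND1 directly, were called higher in excitatory neurons for 4 genes and lower for 1. SEMA3E stood at 227 CPM (232, 222 and 226) in excitatory and 18.3 CPM (19.7, 19.7 and 15.4) in inhibitory neurons, a log2 ratio of 3.63 (3.49 to 3.77). SEMA3D stood at 12.3 CPM (13.2, 11.001 and 12.8) and 2.296 CPM (1.87, 3.09 and 1.91), a log2 ratio of 2.42. SEMA3C was 3.03-fold and SEMA3A 2.54-fold higher in excitatory neurons. SEMA3F was 3.16-fold higher in inhibitory neurons, at a low level of 4.55 against 1.44 CPM. SEMA3B, on 55 excitatory and 25 inhibitory UMIs, also leaned to inhibitory neurons, at a log2 ratio of -0.78, short of 2-fold.

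Membrane semaphorins divided between the neuron classes. SEMA7A, a lipid-anchored ligand of PLXNC1 and integrins, was 3.09-fold higher in excitatory neurons, at 13.8 CPM (14.04, 14.2 and 13.2) against 4.47 CPM (4.45, 4.39 and 4.58). SEMA5B was 2.601-fold higher there, but its log2 ratio was 0.94 after thinning. SEMA4D lay at the 2-fold line, with a log2 ratio of 1.003. It was 0.98 without barcode set 1, 0.99 without set 2 and 0.73 without the PROX1-high cluster. With presumed doublets kept it was 0.92 and after thinning 0.96. SEMA4G was 3.44-fold higher in inhibitory neurons, at 20.1 CPM (19.4, 21.8 and 18.8) against 5.84 CPM (5.53, 6.21 and 5.78). SEMA6C was 3.15-fold and SEMA6D 2.404-fold higher in inhibitory neurons. For SEMA6D the log2 ratio was -1.26, -2.13 without the PROX1-high cluster, -0.87 after thinning and -0.91 with nuclei weighted equally. SEMA4A, SEMA4B, SEMA4F and SEMA6B differed by less than 2-fold.

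Among plexins, the semaphorin receptors, PLXNA4, PLXND1 and PLXNA1 were called, all higher in excitatory neurons. PLXNA4 stood at 1011 CPM (1005, 1006 and 1024) in excitatory and 424 CPM (403, 439 and 431) in inhibitory neurons, a log2 ratio of 1.25. PLXND1 was low, at 5.43 and 2.26 CPM, with a ratio of 1.27. PLXNA1 was at the 2-fold line, 2.01-fold higher, and 0.93 in log2 without barcode set 3. It was also short of 2-fold with nuclei weighted equally (0.91), with presumed doublets kept (0.96) and after thinning (0.98). Other plexins leaned the opposite way without reaching 2-fold: PLXNC1, the SEMA7A receptor, was 1.91-fold, PLXNA3 1.66-fold and PLXNA2 1.55-fold higher in inhibitory neurons. The counting intervals of PLXNB1 (-0.46 to 0.14 in log2) and PLXNB2 (-0.27 to 0.020) included an even ratio. SEMA7A and PLXNC1 therefore had their higher values in opposite neuron classes.

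Ephrins, the membrane-bound Eph ligands, that were called were higher in inhibitory neurons. EFNA5 stood at 400.3 CPM (407, 382 and 413) in inhibitory and 124 CPM (119.8, 128 and 124) in excitatory neurons, 3.23-fold higher in the former. EFNB1 was 2.596-fold higher in inhibitory neurons, at only 5.48 against 2.11 CPM. EFNB2, EFNB3 and EFNA3 were within 2-fold. Among Eph receptors 3 of the EphA type were called, in both directions, and none of the EphB type. EPHA3 stood at 399.6 CPM (408, 405 and 384) in inhibitory and 75.9 CPM (72.3, 76.7 and 78.99) in excitatory neurons, 5.26-fold higher in the former. EPHA4, which binds both ephrin types, stood at 671 CPM (673, 667 and 674) in excitatory and 198 CPM (213, 178 and 204) in inhibitory neurons, a log2 ratio of 1.76. EPHA6 was 2.21-fold higher in excitatory neurons, at 3457 CPM (3542, 3404 and 3422) against 1561 CPM (1683, 1533 and 1458). Over the subtypes described below, its levels overlapped, at 493 to 7792 CPM in excitatory and 288 to 3488 CPM in inhibitory subtypes. The same held for EFNA5, at 14.3 to 594 and 89.3 to 779 CPM. EPHA5, at 674 and 697 CPM, and EPHA7, at 359 and 411 CPM, were close to even, and EPHB2 was 1.71-fold higher in excitatory neurons.

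Other genes of the pathway were read from lists of partners and signalling genes. The background shares of 8.61% higher and 8.3% lower apply to these short lists too, and no list was tested against them. Of 12 measured netrin and slit partners, 3 were higher and 2 lower in excitatory neurons, with the largest ratios for FLRT3, a ROBO1 co-receptor (1.68 in log2), the netrin receptor DCC (1.59) and the neogenin ligand RGMB (-1.43). Of 5 semaphorin co-receptors, NRP1, which binds SEMA3A, was higher (2.63; 831 against 135 CPM) and KDR was lower (-2.102). Of 27 adaptors and GTPase regulators 3 were higher and 3 lower, near the background shares. The largest ratios were for VAV2 (-3.87), CHN1 (2.26) and VAV3 (-2.25), regulators of small GTPases used by Eph receptors. Of 5 collapsin response mediators, cytosolic relays of semaphorin signals, DPYSL5 alone was called, lower at -1.27.

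Shares of nuclei with a UMI, after each nucleus was thinned to 1000 UMIs, differed between the neuron classes for SLIT3 and NTN4 and little for NTNG1. SLIT3 was read in 30.9% of excitatory nuclei (exact binomial interval up to 31.7%) and 1.9% of inhibitory nuclei (1.505 to 2.37%), against 88.7% and 9.59% without thinning. NTN4 was read in 13.5% of inhibitory (12.5 to 14.6%) and 1.504% of excitatory nuclei (1.28 to 1.75%), and without thinning in 49.6% and 8.56%. Astrocytes, with a median of 1735 UMIs, had a thinned SLIT3 share of 3.63% and a thinned NTN4 share of 1.03%, so the SLIT3 share of inhibitory nuclei lay below that of astrocytes. NTNG1, called higher in inhibitory neurons by level, had thinned shares of 17.8% in excitatory and 19.8% in inhibitory nuclei, and unthinned shares in the other order, 54.6% and 41.8%. The thinned comparison left out 1 excitatory, 2 inhibitory and 522 astrocyte nuclei with fewer UMIs.

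The second comparison follows the oligodendrocyte lineage, from precursors, which divide and migrate, to oligodendrocytes, which make myelin. Of 22 measured members, 4 were higher in oligodendrocytes (background: 14.0%) and 10 were lower (background: 18.2%). The median log2 ratio, oligodendrocytes over precursors, was -0.68 over the members and -0.038 over all held-out genes measured. In all 14 called members the set values of the classes lay apart, which again adds little to calls that required the same direction in every set.

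NTNG1 had its highest level in the precursors. It stood at 1355 CPM (1387, 1362 and 1313) in precursors and 57.2 CPM (73.5, 65.8 and 37.5) in oligodendrocytes, 23.7-fold higher in the former (log2 ratio -4.57; -5.04 to -4.13), and the precursor level was 6.23-fold the mean of the other classes. After thinning, 72.2% of precursor nuclei had a NTNG1 UMI (67.4 to 76.7%; 89.4% unthinned) against 4.73% of oligodendrocyte nuclei (2.87 to 7.28%; 8.86% unthinned). LRRC4C, the netrin-G1 ligand, was itself 1.51 in log2 above the other classes in precursors, and the netrin receptor DSCAM 2.68. In all, 4 of 11 measured netrin and slit partners were higher in precursors (background: 4.75%) and 0 lower. A single further member was called higher in precursors than in the mean of the other classes: SEMA3C, at 115 CPM (129.5, 114 and 101), 2.59-fold that mean, with a log2 ratio of 0.97 after thinning. That made 2 of 46 measured members (background: 4.75%).

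The slit receptors and several semaphorin genes were also lower in oligodendrocytes than in precursors. ROBO2 stood at 92.3 CPM (96.4, 88.98 and 92.1) in oligodendrocytes and 490.5 CPM (477, 483 and 513) in precursors, 5.32-fold higher in the latter, and ROBO1 at 688 CPM (739, 747 and 597) and 1526 CPM (1519, 1489 and 1571). PLXNA2 was 3.61-fold, PLXNA4 2.49-fold, SEMA6D 2.74-fold, SEMA3C 2.46-fold and NTN4 4.09-fold higher in precursors. EPHB1 and UNC5D completed the group at 2.304-fold and 2.19-fold. The EPHB1 sets were uneven: its log2 ratio was -0.801 without barcode set 1, -0.899 without set 2 and -2.39 without set 3, and in oligodendrocytes the sets read 32.1, 23.2 and 113 CPM. Leaving out set 1 brought SEMA3C to -0.98 and leaving out set 2 brought UNC5D to -0.94. After thinning SEMA3C was at -0.84. With presumed doublets kept, PLXNA2 stood at -0.9999, PLXNA4 at -0.31, ROBO1 at -0.897 and UNC5D at -0.78 in log2, all short of 2-fold.

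Oligodendrocytes carried UNC5C, SEMA4D, UNC5B and SEMA3E above both the precursors and the mean of the other classes. UNC5C stood at 2824 CPM (2883, 2940.2 and 2678) in oligodendrocytes and 509.5 CPM (471, 545 and 517) in precursors, a log2 ratio of 2.47 (2.32 to 2.62), and was 6.36-fold the mean of the other classes. After thinning it was read in 84.1% of oligodendrocyte nuclei (80.1 to 87.5%; 92.3% unthinned) and 40.7% of precursor nuclei (35.7 to 45.9%; 62.3% unthinned). SEMA4D, a transmembrane semaphorin known from myelinating cells that binds PLXNB1, stood at 341 CPM (275, 375 and 358) and 61.6 CPM (50.5, 55.2 and 80.3), a log2 ratio of 2.47. SEMA3E stood at 266 CPM (220.4, 236 and 328) and 69.4 CPM (44.2, 89.6 and 76.8), a ratio of 1.94. UNC5B had 66 UMIs in oligodendrocytes, at 85.8 CPM (101, 81.2 and 78.5), and 2 in precursors, at 2.24 CPM (0, 6.89 and 0). Its log2 ratio was 5.26, with a counting interval of 3.35 to 8.34, and it was 4.52 without barcode set 1, 4.15 without set 2 and 3.96 after thinning. Against the mean of the other classes these 4 were the called members of 45 measured (background: 7.46%). For the pathway lists, the background shares of oligodendrocytes over precursors were again 14.0% higher and 18.2% lower. Of 4 measured collapsin response mediators, 2 were higher in oligodendrocytes than in precursors, DPYSL5 (2.29) and DPYSL2 (1.61), and 2 were lower. Of 8 measured netrin and slit partners none was higher and 3 were lower, among them DSCAM at -3.29.

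**Figure D3:**
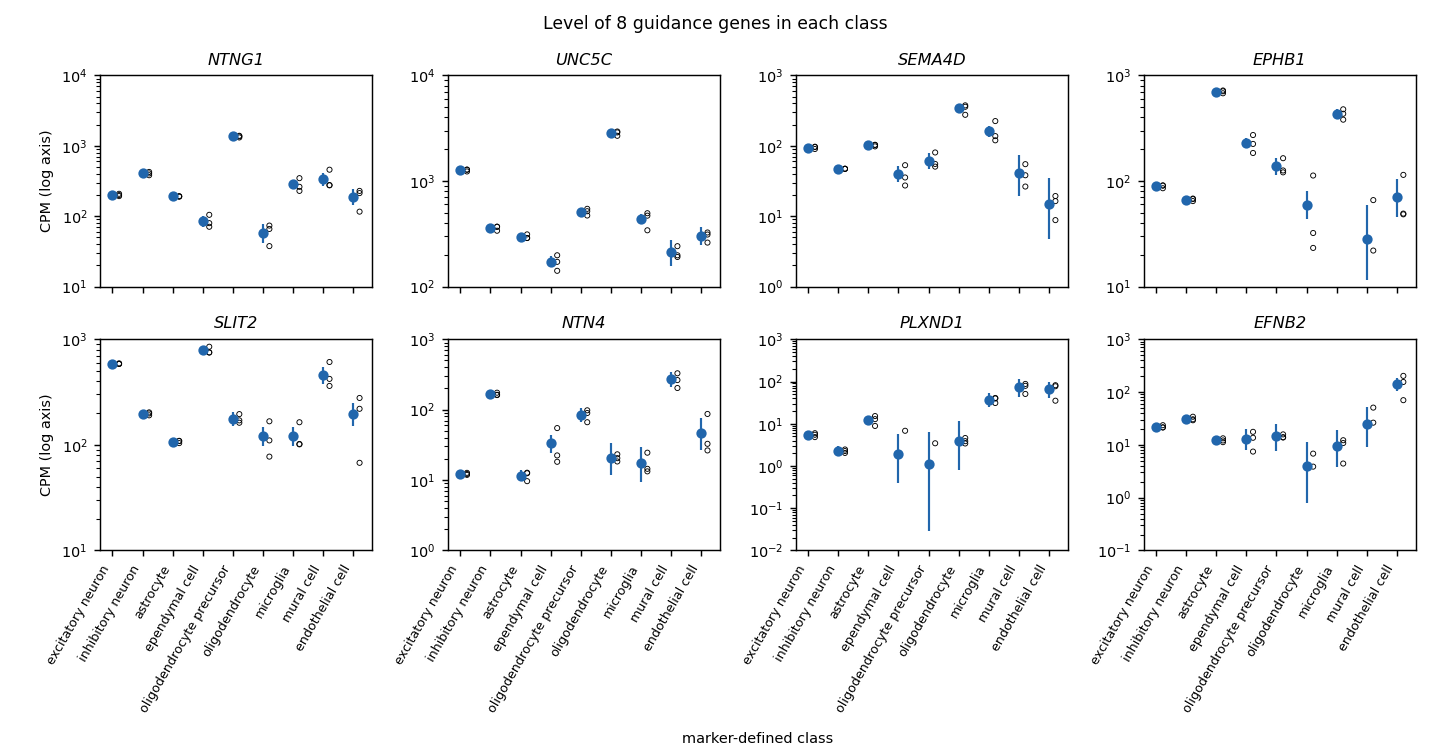
Level in CPM (log axis) of 8 guidance genes in each of the 9 classes. Filled points with bars are the pooled value with its exact 95% Poisson interval, open points the values in the barcode sets (a set with 0 UMIs is not drawn); NTNG1 is highest in precursors, UNC5C and SEMA4D in oligodendrocytes, EPHB1 in astrocytes, SLIT2 in ependymal cells, NTN4 and PLXND1 in mural cells and EFNB2 in endothelial cells.

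Against the mean of the other classes, only higher calls are listed for the non-neuronal classes. In every one of them the median log2 ratio of the members lay below that of held-out genes. It ran from -1.249 against -0.166 in ependymal cells to -0.351 against 0.015 in microglia. Astrocytes, the glia that take up transmitter and contact vessels and synapses, had 6 of 53 measured members above that mean (background: 5.97%). SEMA3B stood at 55.01 CPM (54.6, 52.8 and 57.96), 5.73-fold that mean, and was at 0.586 CPM in excitatory and 1.01 in inhibitory neurons. EPHB1, an ephrin-B receptor, stood at 701 CPM (677, 719.5 and 707), 5.04-fold the mean, against 88.8 CPM in excitatory neurons. PLXNB1 stood at 98.6 CPM (100.2, 98.5 and 97), 3.93-fold the mean, with the sets of each of these 3 genes close together. The receptor PLXNB1 thus had its highest level in astrocytes while its ligand SEMA4D had its highest level in oligodendrocytes. SEMA4A at 63.8 CPM (3.902-fold), SEMA4B at 78.3 (3.11-fold) and UNC5D at 1588 (2.17-fold) made up the remainder. The same background of 5.97% applies to the pathway lists. Of 12 netrin and slit partners 1 was higher, RGMA (2.83 in log2), and of 5 semaphorin co-receptors 1, NRP2 (1.75), which binds SEMA3F.

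Ependymal cells, which line the ventricles and bear cilia, had 3 of 51 measured members above the other classes (background: 12.1%). SLIT2 stood at 785 CPM (851, 749 and 752), 3.201-fold the mean of the other classes and above its level in excitatory neurons, 587 CPM. PLXNB2 stood at 58.999 CPM (39.2, 68.9 and 70.4), 2.55-fold, and was 0.94 in log2 after thinning. SEMA3C stood at 100.5 CPM (93.3, 93.6 and 118), 2.17-fold, and was 0.93 in log2 without barcode set 3. Its log2 ratio was also 0.94 with presumed doublets kept, 0.95 with clustering on all genes but the members and 0.83 against the other non-neuronal classes. Without set 1, 5 members were called in this class. Within the slits, SLIT2 alone was high in ependymal cells, with SLIT1 at 57.1 and SLIT3 at 29.8 CPM. MET, a receptor kinase listed with the plexin co-receptors, was 3.46 in log2 above the other classes.

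Microglia had 5 of 42 measured members above the mean of the other classes (background: 7.89%), and this class also read markers of other glia. SLC1A2, an astrocyte transporter, stood at 4084 CPM in microglia against 10382 in astrocytes, and MBP, a myelin protein, at 1168 against 10732 in oligodendrocytes. Over its whole marker list the class had a mean log2 ratio to neuronal nuclei of 4.64 for microglia and, next, 2.99 for astrocytes. EPHB1 at 432 CPM (433, 477 and 381) was 2.498-fold the mean, but its log2 ratio was 0.45 at a finer clustering and -0.080 when all genes but the members were used to cluster. SEMA3A at 30.8 CPM (32.5, 32.6 and 26.6) was 2.18-fold, on 23 UMIs, and -0.078 in log2 at the finer clustering. SEMA4A stood at 68.2 CPM (57.8, 89.8 and 57.6), 4.31-fold, PLXNA2 at 332 CPM (329, 335 and 332), 2.27-fold, and PLXNB2 at 56.2 CPM (28.9, 53.04 and 92.97), 2.39-fold. These 3 stayed past 2-fold under both of those clusterings. For PLXNB2 the log2 ratio was 0.78 without barcode set 3. The part of astrocyte and oligodendrocyte RNA in the microglial values was not tested. VAV3 at 4.06 and FES at 2.702 led the adaptor list in microglia, where 3 of 24 measured were higher (background: 7.89%).

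Vessel cells were few, and endothelial cells had 7 of 34 measured members above the mean of the other classes (background: 10.8%). EFNB2, the arterial ephrin, stood at 141 CPM (203, 155 and 70.3) on 48 UMIs, 8.64-fold the mean, and its receptor EPHB4, known from veins, at 47.1 CPM (77.3, 40.9 and 26.4) on 16 UMIs, 5.397-fold. Both genes were lowest in set 3. EPHB4 was next highest in mural cells, at 32.5 CPM, and near 0 in neurons, at 0.234 and 0.524 CPM. PLXND1, the endothelial receptor for SEMA3E, stood at 64.8 CPM (77.3, 81.8 and 35.1), 3.76-fold, and SEMA7A at 35.3 CPM (19.3, 32.7 and 52.7) on 12 UMIs, 5.11-fold. EPHA4 stood at 592 CPM (666, 589 and 527), 2.74-fold, and EFNA5 at 359 CPM (753, 147 and 228), 3.54-fold. The EFNA5 sets were far apart, with set 1 well above the others, and without it the log2 ratio was 0.84. UNC5B stood at 61.8 CPM (77.3, 57.3 and 52.7), 2.32-fold, and at 0.98 in log2 without set 1. It was also short of 2-fold with presumed doublets kept (0.97) and against the other non-neuronal classes (0.96). Without set 1, 4 of 29 measured members were called in endothelial cells. KDR, a growth factor receptor that SEMA6D signalling can use, was 5.95 in log2 above the other classes and NRP1 1.03.

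Mural cells had 6 of 29 measured members above the other classes (background: 11.2%). NTN4 stood at 268 CPM (264, 329 and 203), 5.46-fold the mean of the other classes, so that its 2 highest levels were in mural cells and inhibitory neurons. PLXND1 stood at 73.2 CPM (79.05, 87.7 and 50.8), 4.53-fold, UNC5B at 89.5 CPM (65.9, 87.7 and 114), 3.86-fold, and SEMA6D at 150.5 CPM (145, 132 and 178), 3.15-fold. SLIT3 stood at 236 CPM (184, 164 and 368), 3.04-fold, second to its level in excitatory neurons, and was 0.96 in log2 after thinning. SEMA5B, on 15 UMIs, was at the 2-fold line and was 0.98 in log2 without barcode set 2. After thinning it was 0.99 and against the median of the other classes 0.94. UNC5B and PLXND1 were called in both vessel classes, and UNC5B also in oligodendrocytes.

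The 5 members under 50 UMIs in every class were PLXNB3, EFNA1, EPHA2, UNC5CL and ROBO4, and they were not measured in most comparisons. ROBO4, the endothelial ROBO, had 19 of its 34 UMIs in endothelial cells, at 55.9 CPM (57.9, 40.9 and 70.3) with an interval of 33.7 to 87.4. It had 10 in excitatory neurons and none in inhibitory neurons, where the floor of 3 counts used in ratios stands at 0.121 CPM. UNC5CL had 24 of its 31 UMIs in ependymal cells, at 15.6 CPM (9.33, 17.7 and 20.5) with an interval of 9.97 to 23.2. EPHA2 had, of 58 UMIs, 18 in microglia and 15 in mural cells. These 3 genes had most of their UMIs outside neurons, although the neurons held the most UMIs in all.

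The final comparison asks how far the members separate subtypes within each neuron class. Excitatory nuclei fell into 13 subtypes, E1 to E13, and inhibitory nuclei into 11, I1 to I11, numbered by size and clustered without the guidance genes. A member was called in a subtype when its level there was 2 or more times the mean over the remaining subtypes of its class, in all 3 sets. Of 52 measured members, 36 (69.2%) were called in at least 1 excitatory subtype, against 24.9% of 7248 measured held-out genes, with 55 calls in all. Of 48, 31 (64.6%) were called in at least 1 inhibitory subtype, against 18.4% of 6118 genes, with 39 calls. These background shares cover all subtypes of a class together. None is given for a single subtype, so a count in 1 subtype does not show that it is rich in guidance genes.

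**Figure D4:**
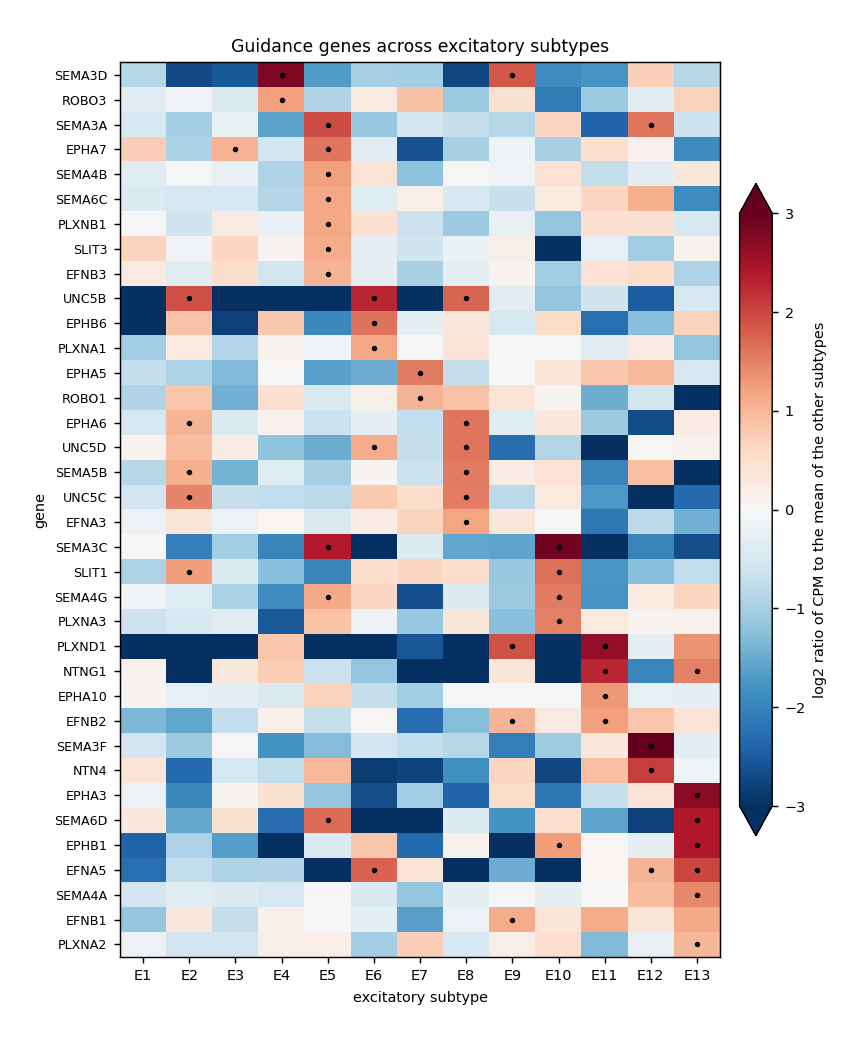
Log2 ratio of CPM in each excitatory subtype to the mean of the other 12 (columns E1 to E13), for the 36 guidance genes called in at least 1 of them (rows); black dots mark the calls. Dots are most frequent in E5 (10 genes) and E13 (7 genes), and E1 has none, with no background share for single subtypes.

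The PROX1-high excitatory nuclei made up 46.7% of the class and fell into subtypes E1, E3 and E5. PROX1, a homeobox gene best known from dentate granule neurons, stood at 300.3, 177 and 315 CPM in these and at no more than 4.42 in the other 10 subtypes. Whether these nuclei come from the amygdala was not tested. E1, the largest with 2856 nuclei, had no called member, and E3 had EPHA7 alone, at 686 CPM (687, 688 and 682), 2.05-fold the others and 0.99 in log2 after thinning. E5 had 10 of 48 measured members called on 726 nuclei, with no background share for this subtype alone. SEMA3C stood at 125 CPM (156, 102 and 117), 5.23-fold the mean of the others, SEMA3A at 94.3 CPM (82.4, 83.4 and 118), 3.88-fold, and SEMA6D at 98.1 CPM (95.04, 103 and 96.3), 3.17-fold. SEMA3C was at 31.7 CPM in E1 and 16.04 in E3, so the PROX1-high subtypes were not alike in it. E5 nuclei were also the shallowest, with a median of 4426 UMIs.

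Among the other large excitatory subtypes, members of the UNC5, slit, Eph, ephrin and ROBO families were called. E2 (NECTIN3, BMPR1B) and E8 (FA2H, OSCAR), with leading clustering genes in brackets, shared UNC5B and UNC5C: UNC5B stood at 30.8 CPM (30.1, 30.9 and 31.3) in E2 and 27.9 CPM (26.8, 29.3 and 27.8) in E8, and UNC5C at 2339 CPM (2319, 2390.2 and 2303) and 2439 CPM (2470.5, 2464 and 2375). UNC5B was highest in E6 (ST18, OPRM1), at 36.2 CPM (27.6, 44.99 and 36.3), 4.77-fold the others, and its lowest value was 0.611 CPM in E7. SLIT1 was 2.402-fold the others in E2 and EPHA6 3.05-fold in E8, at 7792 CPM (8037, 7598 and 7682), along with UNC5D at 3.02-fold. E6 also had EFNA5 at 527 CPM (536, 517 and 527) (3.405-fold) and EPHB6, a kinase-dead Eph receptor, at 3.11-fold. E7 (SLC26A7, KCNH8) had EPHA5 at 2110.4 CPM (2108, 2113 and 2109.8) (2.94-fold) and ROBO1 at 5156 CPM (5286, 5100.1 and 5082) (2.03-fold).

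SEMA3D was shared by E4 (FIBCD1, KLRB1) and E9 (HMCN1, IL1RAPL2). It stood at 59.8 CPM (61.6, 55.8 and 61.4) in E4, 6.998-fold the others, and 37.8 CPM (36.6, 33.97 and 43.2) in E9, while its lowest value was 2.02 CPM in E8. E4's other call, ROBO3, rested on 25 UMIs, was 0.88 in log2 without barcode set 1 and went below the others after thinning (-1.26). PLXND1 was 3.78-fold the others in E9, where EFNB1 was also called on 23 UMIs (0.94 in log2 without set 3, 0.12 after thinning).

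The smaller excitatory subtypes had some of the largest ratios. E10 (UGT8, SCN7A; 324 nuclei) had SEMA3C at 156 CPM (170.1, 152 and 146), 7.38-fold the others, SLIT1 at 1279 CPM (1292, 1266 and 1278), 3.13-fold, and SEMA4G at 2.95-fold. E11 (NDST4, PLPP4; 152 nuclei) had PLXND1 at 45.3 CPM (56.1, 36.6 and 47.5), 6.24-fold, NTNG1 at 1000.3 CPM (928, 1060.3 and 983), 4.78-fold, and EPHA10 at 2.47-fold (0.73 in log2 after thinning). PLXND1 ran from 0.2801 CPM in E10 to 45.3 CPM in E11, the widest range of any excitatory member read in all 13 subtypes. The E10 value rests on very few UMIs, so the size of that range is uncertain. E12 (KCNIP1; 130 nuclei) had SEMA3F at 12.1 CPM (2.98, 11.2 and 20.9) on 13 UMIs, 8.54-fold, NTN4 at 58.5 CPM (53.7, 64.3 and 57.4), 4.21-fold, and SEMA3A at 3.04-fold. The SEMA3F log2 ratio in E12 was 2.499 without barcode set 3, where its level was highest. E13 (HTR1F, GPC6; 69 nuclei) had EPHA3 at 494 CPM (465, 653 and 373), 6.504-fold, SEMA6D at 144 CPM (183, 145 and 105), 5.33-fold, and EPHB1 at 627 CPM (527, 636 and 719.5), 5.301-fold. E12 and E13 had the highest median doublet scores among the excitatory subtypes, 0.0683 and 0.0635, against 0.0201 to 0.0481 in the rest, and the part of doublets in their values was not tested.

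At the other end, SEMA6B, UNC50 and PLXNB2 varied least of the measured members, with highest over lowest excitatory subtype at 1.98, 1.99 and 2.09. SLIT2, which differed between the neuron classes, varied only 2.77-fold among excitatory subtypes and was called in none, and the same held for EPHB2 at 2.54-fold. SLIT3 ranged from 27.4 CPM in E10 to 635 in E5, a wide range for a gene that was higher in excitatory neurons as a class.

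LHX6, known from neurons of the medial ganglionic eminence, stood at 179 to 249.5 CPM in I1, I3, I8, I9 and I11 and at no more than 5.41 in the others. ADARB2, known from caudal eminence neurons, stood at 7805 to 16890.0 CPM in those others and at no more than 1586 in the LHX6 group. In the LHX6 group, I1 (LAMP5, CASR; 746 nuclei) had UNC5D at 4987 CPM (5087, 4957 and 4912), 2.52-fold the others, UNC5C at 778 CPM (796, 798 and 737), 2.29-fold, and SEMA3F at 9.79 CPM (10.2, 9.39 and 9.74), 3.06-fold. I3 (TLL1, CHST9) had SLIT2 at 458 CPM (429, 474 and 471), 3.16-fold, and EPHB6 at 52.1 CPM (55.5, 49.7 and 51.1), 2.94-fold. I9 (SPON1, HGF) had EPHB6 alone, at 79.5 CPM (48.4, 77.6 and 110.3), 5.32-fold, with sets far apart but each above the I1 level of 6.29 CPM. I8 (ZFPM2, CUX2) had SEMA6D at 165 CPM (178, 172 and 137), 3.25-fold, SLIT1 at 2.35-fold and SEMA4A at 2.22-fold (0.47 in log2 after thinning).

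**Figure D5:**
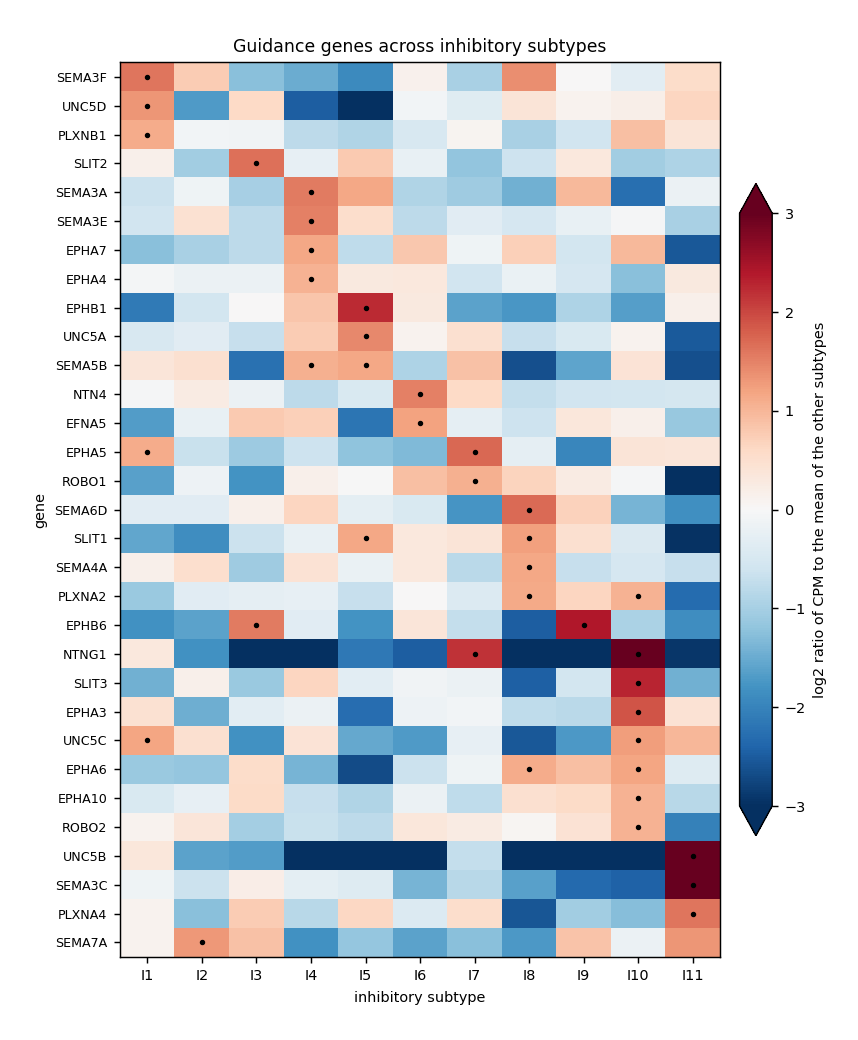
Log2 ratio of CPM in each inhibitory subtype to the mean of the other 10 (columns I1 to I11), for the 31 guidance genes called in at least 1 of them (rows); black dots mark the calls. I10 has the most dots (8 genes, with no background share for single subtypes), and UNC5B in I11 is the reddest cell.

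I11 (TAFA4, CYP2J2; 74 nuclei) held the largest ratio among the called members of all 24 subtypes. UNC5B stood there at 148 CPM (192, 116 and 153) on 73 UMIs, with an interval of 116 to 186, against a mean of 5.45 CPM in the other inhibitory subtypes, 27.2-fold. All 3 sets in I11 lay far above that mean, and the lowest inhibitory subtype, I6, read 0.318 CPM. SEMA3C stood at 50.7 CPM (55.97, 65.7 and 29.4) on 25 UMIs, 8.07-fold, and PLXNA4 at 1139.9 CPM (1112, 1218 and 1069.8), 3.02-fold. ROBO1 had its lowest inhibitory value in I11, 178 CPM.

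Among ADARB2-high subtypes, NTNG1 was concentrated in 2. I10 (HTR2C, MEIS2; 113 nuclei) had NTNG1 at 2605 CPM (2694, 2469 and 2574), 8.72-fold the others, SLIT3 at 92.7 CPM (88.8, 128 and 73.5), 4.85-fold, and EPHA3 at 1318 CPM (1302, 1518 and 1201), 3.72-fold. I7 (ELL2, GLI2; 306 nuclei) had NTNG1 at 1742 CPM (1692, 2025 and 1482), 4.53-fold, EPHA5 at 1894 CPM (1751, 2068 and 1829), 3.28-fold, and ROBO1 at 5252 CPM (5219, 5205 and 5330.3), 2.09-fold. The median NTNG1 level over inhibitory subtypes was 98.3 CPM and the lowest 33.9 in I3, against a median of 178 over excitatory subtypes. The higher NTNG1 of inhibitory over excitatory neurons as classes was therefore not shared by most inhibitory subtypes. EPHA5 and ROBO1 were called together both in I7 and in the excitatory subtype E7.

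Among the remaining ADARB2-high subtypes, I5 (VWC2L, IQGAP2) had EPHB1 at 248 CPM (216, 251 and 277), 4.71-fold the others, UNC5A at 2.71-fold and SEMA5B at 2.24-fold (0.95 in log2 without barcode set 2). I4 (CALCR, ABI3BP) had SEMA3A at 22.9 CPM (22.7, 15.2 and 32.3), 2.97-fold, SEMA3E at 2.87-fold and EPHA7 at 2.22-fold. I6 (GPC5, CADPS2) had NTN4 at 368 CPM (367, 345 and 391), 2.83-fold, and EFNA5 at 779 CPM (702, 687 and 941), 2.29-fold. NTN4 did not fall below 91.7 CPM in any inhibitory subtype, above its highest excitatory subtype level, 58.5 CPM in E12. I2 (COL21A1, TPD52L1) had SEMA7A alone, at 9.91 CPM on 26 UMIs, 2.45-fold and 0.34 in log2 after thinning.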

How the data were processed

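The deposited table holds raw UMI counts per gene and nucleus. Per the submitters' processing notes, the tools were Cell Ranger 3.0.0 and fastp and the build GRCh38. That build is human, while 5142 gene rows carry macaque Ensembl identifiers. The build of the annotation was therefore not settled and no coordinates or sequences are given. All counts were whole numbers, with a maximum of 705 and a total of 151526883 in 19708 rows, and all columns were used. Median depth was 5053.5 UMIs per nucleus, 5009 to 5116 across barcode sets. Of 69 symbols that a RefSeq gene table lists under the family rule, 10 were not found as row symbols, and these were not used here. Columns could not be tied to samples, so nothing was tested.

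Markers and a hash-chosen part of the other genes were used for clustering (9841 genes). The members, pathway genes and the rest were held out (9866 genes), and background shares count held-out genes. Every deposited nucleus had 200 or more detected genes. Counts were scaled to 10000 counts and log-transformed. With 2000 variable genes, 30 principal components and 15 neighbours, Leiden resolution was 0.5 (scanpy 1.11.5, igraph 0.11.9, scikit-learn 1.9.0, scipy 1.17.1, numpy 2.4.6, Python 3.11.15). Presumed doublets were the highest Scrublet scores in each barcode set, 0.8% per 1000 nuclei.

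Inhibitory clusters needed GAD1 and GAD2 above 300 CPM in sum, excitatory ones SLC17A7 above 75, SV2B above 45 and RBFOX3 above 600. Others needed a mean log2 marker ratio to neuronal nuclei (5 CPM added) above 2.5 and a lead of 1 over classes outside their lineage. Clusters with a median doublet score above 0.07, under 3 detected markers, or shallow without a marker among their 10 leading genes stayed unnamed. Unnamed clusters and glial lineage clusters of at least 100 nuclei were clustered again. Subtypes with at least 20 nuclei in each set were described. These thresholds were partly set after seeing the data.

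A log2 ratio compares CPM of summed counts, with 0 set to a floor of 3 counts. The procedure was tested on simulated data at the depth of inhibitory neurons, with known folds well past 2-fold in well-covered genes. That did not test calls in the shallower classes or near the 2-fold line. The rule for naming took up to 8 called members per direction and any measured member of the same ligand and receptor families, which in the pair comparisons came to every called member. In a subtype it took the 3 called members with the largest ratios. The members and gene lists were chosen with earlier results of these data known. The alternatives were: doublets kept, nuclei weighted equally, thinning to 1000 UMIs, each barcode set left out, Leiden resolution 1.0, clustering on all genes but the members, a minimum of 20 UMIs, the median of the other classes, no PROX1-high cluster and, added after seeing the data, the mean of the other non-neuronal classes only.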

Additional observations from a re-analysis of the deposited data

How the results depend on the processing

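No paired analysis was possible because the nuclei form 1 pool with no map to the labelled samples. Of 135 counts of called members recomputed under the alternatives, 123 stayed within 1.5 times of 14 reported counts and 12 did not. With the median of the other classes in place of their mean, 10 members were higher in astrocytes (6 reported), 7 in ependymal cells (3), 8 in microglia (5) and 5 in precursors (2), and precursors also had 5 against the other non-neuronal classes only. After thinning to 1000 UMIs, 7 members were lower in excitatory than inhibitory neurons (11), and 4 were higher in endothelial cells (7), 3 in mural cells (6) and 1 in precursors (2). With presumed doublets kept, 6 were lower in oligodendrocytes than precursors (10). Leaving out 1 barcode set at a time gave 4 to 6 for endothelial cells and 2 to 5 for ependymal cells. Of 1143 log2 ratios of single genes recomputed, 792 moved little, 348 moved further and 3 changed sign: ROBO3 in E4 at -1.26 after thinning, EPHB1 in microglia at -0.080 with clustering on all genes but the members, and SEMA3A in microglia at -0.078 at Leiden resolution 1.0. The cause was not tested. Without the PROX1-high excitatory cluster, 25 ratios between the neuron classes moved further and 5 moved little. The called members were then 18 higher in excitatory neurons (19 reported) and 10 lower (11). Depth limits the vessel classes and microglia most, with 142 to 314 nuclei each, and members under 50 UMIs could not be compared.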

Other observations

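In clusters that no marker set named, guidance genes were also high, and 2 such clusters are described here, chosen after their values were seen. In a cluster of 165 nuclei, SEMA3C had the largest ratio to all other kept nuclei of any gene in the table, at 609.6 against 25.1 CPM on 137 UMIs. SEMA3A ranked next, at 165 against 19.4 CPM. PLXNA2, a plexin that serves class 3 semaphorins, stood at 872 against 181 CPM and EPHB1 at 432 against 143. The cluster had a median of 1348 UMIs per nucleus, PROX1 at 298 CPM and RBFOX3 at 578. Some of the immature neuron markers were read, with DCX at 205 CPM, SOX4 at 26.7 and NEUROD1 at 35.6, while SOX11 was at 0. The mean log2 marker ratio to neuronal nuclei was 1.195 for the astrocyte list and 1.155 for the immature neuron list. Both fell short of the threshold for naming, so the markers do not settle the cell type. The cluster shared SEMA3C and SEMA3A with the PROX1-high subtype E5.

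A cluster of 79 nuclei led by BCAS1 and ENPP6, genes of committed oligodendrocyte precursors, rested on too few detected markers to be named. It had SEMA4D at 833 against 88.9 CPM in other nuclei, above the level in oligodendrocytes (341 CPM), EPHB1 at 833, SEMA3C at 207 and SEMA6D at 167. NTNG1, at 586 CPM, lay between precursors (1355) and oligodendrocytes (57.2). These clusters have 1 pooled value each and were not compared further.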
